A study of Mus musculus with 6 samples.

Results

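The genes described here write, erase or read marks on DNA and histones, or move nucleosomes. They were taken from a list of 53 such genes sorted by enzyme class, chosen by name. The table of this study holds 50 of them among its 770 genes, and Phf19, Ing2 and Ep400 were not analysed here. RNA from mouse whole-brain homogenates was counted with NanoString, a method that hybridises colour-coded probes to RNA and counts single probes without amplification. There were 3 wild-type (WT) samples and 3 samples carrying the SOD1-G85R transgene, a form of superoxide dismutase 1 used to model amyotrophic lateral sclerosis. All 6 samples had the C57BL/6 background and were labelled day 10, and none was treated. The promoter and line behind the transgene, how the days were counted and whether each replicate was a separate mouse are points that the labels leave out, so the p-values below measure only the spread between these samples.

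Each value is a normalized count, as the authors deposited it. The deposited values, turned back to counts through the smallest step between them, came to between 468717 and 1022646 counts in a sample, and the lowest value in a sample, read as a floor, lay between 7.85 and 13.4. Across the 712 genes that passed a filter on low values, SOD1-G85R replicate 2 correlated with the other samples at Pearson's r between 0.824 and 0.834 on the log2 scale, and the other pairs lay between 0.956 and 0.984. Its summed level of 14 interferon response genes was 40168, against 1450 to 2114 in the other 5 samples. Over the 49 chromatin genes that passed the filter its correlations, 0.932 to 0.974, lay within the range of the other pairs, 0.906 to 0.983. The labelled tissue carried its markers in every sample: none of 13 neuron markers and none of 15 oligodendrocyte markers was at the floor anywhere, while each of 12 T and NK cell markers was at the floor in at least 1 sample.

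DNA methyltransferases place methyl groups on cytosine, and some proteins with a methyl-CpG domain read them. Polycomb repressive complex 2 (PRC2) methylates a lysine of histone H3 and keeps developmental genes silent, with Ezh2 as its enzyme in dividing progenitor cells and Ezh1 as its enzyme in many resting cells. Acetyltransferases open chromatin, deacetylases reverse this in complexes with corepressors, bromodomain proteins bind the acetylated tails, and SWI/SNF and ISWI remodellers slide nucleosomes with energy from ATP. In the postnatal brain these enzymes act in the last progenitor divisions, in the formation of oligodendrocytes and in the maturation of neurons.

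The results turn on few genes, and for 4 of them the window from 250 bases before to 50 bases after the start site is shown, from RefSeq on build GRCm38.p6. Ezh2 and Setd7 are shown because their groups lay farthest apart by p-value, Hdac4 because it came next, and Ezh1 because it is the paralog set against Ezh2 below. All 4 lie on the minus strand and are written 5′ to 3′ along the gene, at chr6:47594981-47595280 for Ezh2, chr11:101226414-101226713 for Ezh1, chr3:51560774-51561073 for Setd7 and chr1:92180292-92180591 for Hdac4. Capitals mark a match to an E2F-type motif, which was searched on both strands as TTTCCCGC, TTTCGCGC, TTTGCCGC or TTTGGCGC. E2F factors bind such letters at genes of the cell cycle.
Ezh2: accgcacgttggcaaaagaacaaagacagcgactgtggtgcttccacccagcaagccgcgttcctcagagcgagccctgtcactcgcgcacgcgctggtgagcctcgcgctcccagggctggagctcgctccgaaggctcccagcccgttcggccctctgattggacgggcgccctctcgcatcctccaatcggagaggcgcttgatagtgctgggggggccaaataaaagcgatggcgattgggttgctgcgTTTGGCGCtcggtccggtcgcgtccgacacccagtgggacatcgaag
Ezh1: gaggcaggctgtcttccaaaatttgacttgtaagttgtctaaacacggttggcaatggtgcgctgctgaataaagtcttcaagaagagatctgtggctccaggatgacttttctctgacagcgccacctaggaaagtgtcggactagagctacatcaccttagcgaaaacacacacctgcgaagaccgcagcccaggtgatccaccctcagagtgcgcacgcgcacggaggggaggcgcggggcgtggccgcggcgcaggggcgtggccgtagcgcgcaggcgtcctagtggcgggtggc
Setd7: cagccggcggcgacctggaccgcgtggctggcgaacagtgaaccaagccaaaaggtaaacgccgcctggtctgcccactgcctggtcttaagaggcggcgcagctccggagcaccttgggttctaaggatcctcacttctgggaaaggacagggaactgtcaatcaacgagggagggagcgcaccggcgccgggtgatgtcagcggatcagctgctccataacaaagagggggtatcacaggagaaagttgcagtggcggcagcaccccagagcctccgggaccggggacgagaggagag
Hdac4: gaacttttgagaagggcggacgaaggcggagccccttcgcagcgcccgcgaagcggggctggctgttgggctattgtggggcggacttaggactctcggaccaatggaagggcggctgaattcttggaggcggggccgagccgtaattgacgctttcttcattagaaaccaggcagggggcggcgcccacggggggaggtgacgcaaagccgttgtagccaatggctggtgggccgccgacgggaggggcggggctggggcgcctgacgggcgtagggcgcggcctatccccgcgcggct
The Ezh2 window held 1 match, 4 bases after the start site, and 31 CpG pairs, and the windows of Ezh1, Setd7 and Hdac4 held none of these letters and 23, 21 and 32 CpG pairs. A match is a description of letters and not a binding site, and its absence says nothing about the factor.

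Of the 50 measured chromatin genes, 44 matched the promoter table, with 62 windows in all. Windows of 7 of these 44 genes (15.9%) held the motif, which is 11.3% of their windows, against 4.36% of 688 windows of the other panel genes tested and 2.26% of all 32851 windows in the table. Their windows were also rich in CpG pairs, with a median of 28 per window against 15 in the other panel genes and 7 in all windows, and had a median GC content of 65.3% against 58.3% and 52.7%. Besides Ezh2, the matches lay at Dnmt1 (2 matches in 1 window), Suz12, Kat2a, Arid1a, Smarcd1 and Suv39h1. The stretches around the matches at Suz12 (chr11:79992877-79992904, plus strand), Suv39h1 (chrX:8074408-8074435, minus strand) and Dnmt1 (chr9:20952574-20952600, minus strand) are shown to let the letters be compared with those of Ezh2, with the match in capitals and, at Suv39h1, on the reverse strand.
Suz12: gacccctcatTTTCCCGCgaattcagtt
Suv39h1: gaaggccggcGCGGCAAAcgtgggggcc
Dnmt1: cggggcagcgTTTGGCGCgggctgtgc
Their log2 fold changes between the genotypes, tested below, had both signs, at 0.55 for Ezh2, 0.22 for Suv39h1, 0.054 for Suz12, 0.012 for Dnmt1, −0.025 for Arid1a, −0.10 for Kat2a and −0.39 for Smarcd1.

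Of the 50 genes, 49 were tested for a difference between the genotypes, with limma on log2(normalized count + 1) and Benjamini-Hochberg adjustment over all 712 genes. Kdm3b, a histone demethylase, did not pass the filter, with 10.3, 16.1 and 8.05 in WT, against 13.9, 11.4 and 15.6 in SOD1-G85R, 2 of these values being floors. None of the 49 passed an adjusted p of 0.05, a level that 0% of the 712 genes reached. The smallest adjusted p among them was 0.262, and in the whole panel it was 0.0810. At an unadjusted p under 0.05 there were 2 of 49 genes (4.08%), against 16.3% of all genes. They were Ezh2, with the higher level in SOD1-G85R (11.7% of all genes on that side), and Setd7, with the lower (4.63% of all genes). The groups did not overlap for 5 of 49 (10.2%), against 27.0% of all genes. Ezh2 and Sirt1 were the 2 on the higher side, where 17.0% of all genes lay, and Setd7, Kmt2c and Hdac4 were the 3 on the lower side, where 9.97% lay.

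The fold changes of the chromatin genes were small beside those of the panel. Their log2 fold changes, given as SOD1-G85R minus WT, ran from −0.66 to 0.68 around a median of 0.015, with 28 above 0 and 21 below. The median size of the change, without its sign, was 0.138, against 0.328 over all genes tested, and a change past 0.5 in size was seen in 6.12% of the chromatin genes and 36.5% of all genes. The 95% interval of the change stayed within 1 log2 unit of 0 for 40 of the 49 (81.6%), against 47.3% of all genes, so a doubling or a loss to 1/2 lay outside the interval for these 40. The standard errors had a median of 0.239 over the chromatin genes and 0.288 over all genes. The median change over the panel was 0.15 as deposited and −0.06 after each sample was centred on its own median. Against the panel, the median of the chromatin genes lay 0.13 lower on the log2 scale. Without SOD1-G85R replicate 2 the 2 medians lay closer, at 0.0071 for the panel and −0.050 for the chromatin genes. After centring on housekeeping genes they were 0.22 and 0.092, a move in the opposite direction to centring on sample medians.

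**Figure D1:**
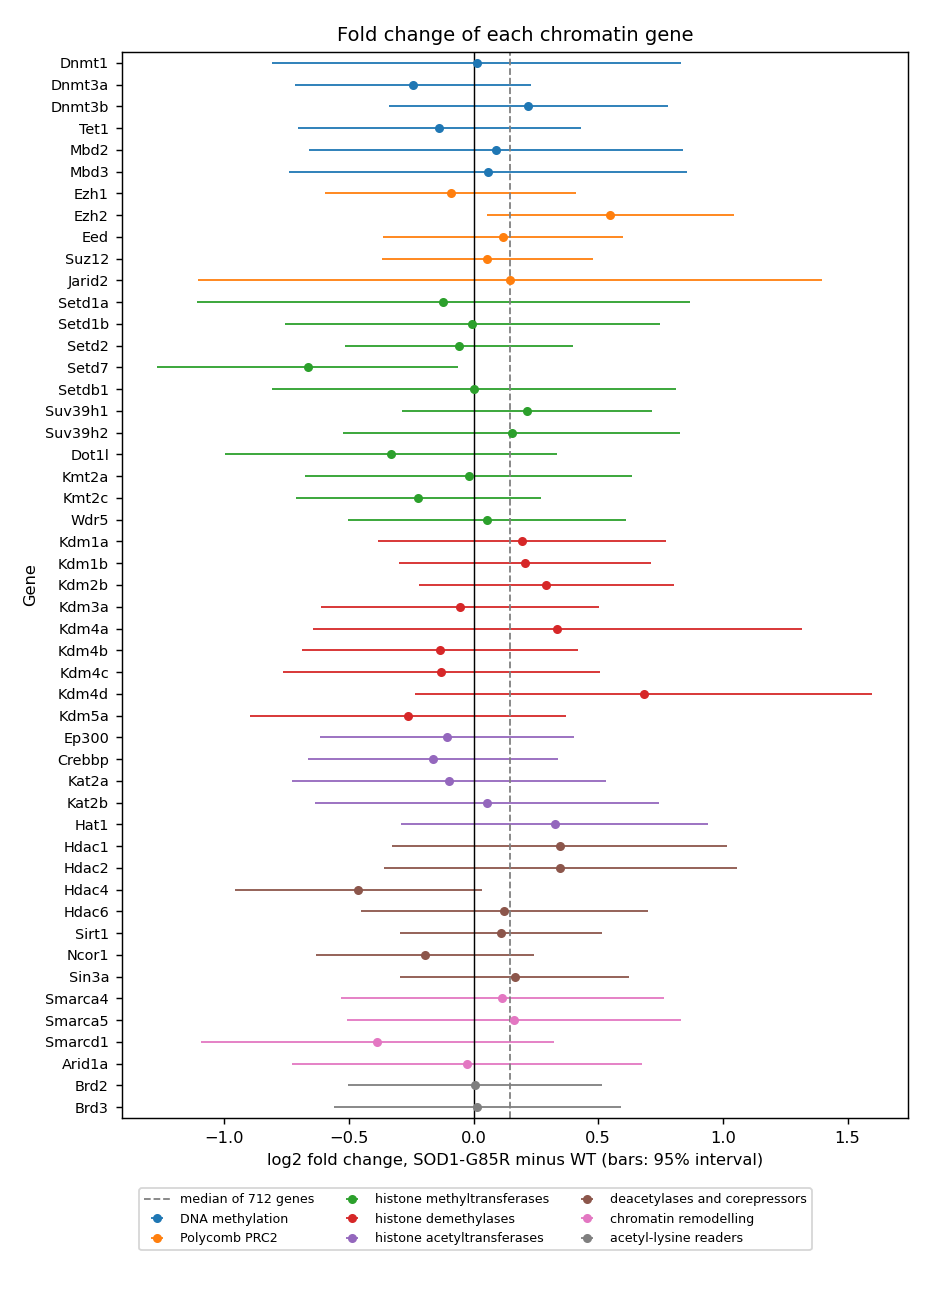
Log2 fold change (SOD1-G85R minus WT, horizontal axis) of each of the 49 chromatin genes tested, with its 95% interval from limma as a bar and the enzyme class as colour; the dashed line is the median of the 712 genes tested. The intervals of Ezh2 and Setd7 are the only ones of the 49 that leave out 0, and Jarid2 and Kdm4d have wide ones.

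The DNA methylation class held 6 genes and its median log2 fold change was 0.035, with 4 above 0 and 2 below, and turned to −0.17 after centring on sample medians and −0.20 after quantile normalization. Dnmt3a, a methyltransferase that sets new methylation in maturing neurons, read 1202, 1320.4 and 1522 in WT, against 1020, 1267 and 1128 in SOD1-G85R. The groups overlapped, at a log2 fold change of −0.24 (SE 0.20). Dnmt3b, the other enzyme for new methylation, was near the floor, at 15.0, 24.1 and 16.0 in WT, against 21.3, 20.7 and 21.3 in SOD1-G85R. It passed the filter through 1 WT and all 3 SOD1-G85R samples, and its log2 fold change of 0.22 (SE 0.23) lies within a range of values close to background. Dnmt1, which copies methylation to new strands during replication, read 103, 174 and 117 in WT, against 101, 193 and 109 in SOD1-G85R. Replicate 2 was the high sample in both genotypes. The remaining 3 genes, an oxidase of methylcytosine and 2 proteins with a methyl-CpG domain, had log2 fold changes from −0.14 to 0.091.

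In the PRC2 class Ezh2 stood apart from its partners. Ezh2, the methyltransferase of the complex, read 336, 461 and 429.9 in WT, against 540.2, 615 and 628 in SOD1-G85R. The lowest SOD1-G85R sample lay above the highest WT sample, with means of 409 ± 64.8 (SD, n = 3) and 594 ± 47.3 (SD, n = 3). The log2 fold change was 0.55 (SE 0.20, 95% interval 0.052 to 1.04), with a limma adjusted p of 0.262. It was above 0 under each of the other 18 settings, and was 0.34 with an adjusted p of 0.591 once each sample was centred on its median. Many of these settings could not reverse it. Other filters, the variance model, the replicate block and setting values under 20 to 20 left it at 0.55. Leaving out a sample cannot reverse groups that do not overlap. Eed, the subunit that binds the methyl mark, read 586, 583 and 576 in WT, against 736, 649.7 and 527 in SOD1-G85R. Its 3 WT values lay within 0.025 log2 units of each other, and the SOD1-G85R values spread to both sides of them. Suz12, the scaffold, had a log2 fold change of 0.054 (95% interval −0.37 to 0.48). Ezh1, the paralog of Ezh2, read 129.7, 169.96 and 185 in WT, against 141, 153 and 156 in SOD1-G85R, which lay inside the WT range.

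The class median was 0.12 over 5 genes, with 4 above 0, and −0.089 after centring on sample medians. Jarid2, a factor that helps PRC2 to its targets, had the widest spread of the class, with 154, 509 and 284 in WT, against 189.6, 409 and 389 in SOD1-G85R. The WT samples alone covered 1.72 log2 units, so its log2 fold change of 0.15 carried a 95% interval from −1.10 to 1.40.

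Because a ratio of 2 genes within a sample does not move with that sample's scaling, 3 pairs were compared as log2 ratios. The ratio of Ezh2 to Ezh1 was 1.37, 1.43 and 1.22 in WT, against 1.93, 2.00 and 2.00 in SOD1-G85R. The groups did not overlap, and the difference was 0.64, with SDs of 0.11 in WT and 0.038 in SOD1-G85R (n = 3 each). Most of it was the change of Ezh2 itself, 0.55. How often other pairs of genes separate the groups was not tested. The exact two-sided permutation p was 0.1, the smallest that 3 against 3 samples can give, and 0.3 adjusted over the 3 pairs. The ratio of Dnmt1 to Dnmt3a differed by 0.26 (exact permutation p = 0.5, adjusted 0.75). For Hdac1 to Hdac2 the difference was −0.0033 (exact permutation p = 1), with SDs of 0.64 in WT and 0.66 in SOD1-G85R, and the range of differences with 1 sample left out ran from −0.31 to 0.36. Probes differ in efficiency, so only differences of such a ratio between samples are read here, not its level.

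**Figure D2:**
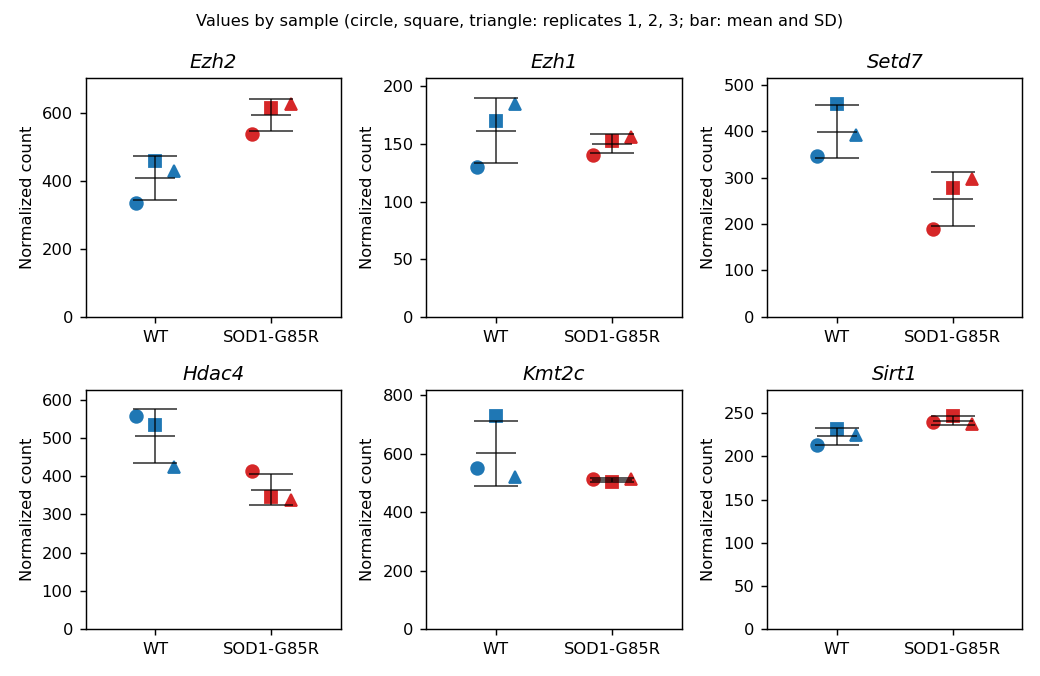
Normalized count (vertical axis, from 0) in each WT and SOD1-G85R sample for the 5 chromatin genes whose groups do not overlap and for Ezh1; circles, squares and triangles are replicates 1, 2 and 3, and bars give the mean and SD (n = 3). Ezh2 and Sirt1 lie higher in SOD1-G85R, Setd7, Hdac4 and Kmt2c lie lower, and the Ezh1 values of SOD1-G85R lie inside the WT range.

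In the histone methyltransferase class, which also holds a subunit that is not itself an enzyme, 4 of 11 genes had log2 fold changes above 0. The other 7 were below, and the median was −0.021. Setd7, an enzyme that methylates histone H3 and other proteins, read 346, 459 and 392 in WT, against 189, 277 and 297 in SOD1-G85R. Every SOD1-G85R sample lay below every WT sample. Means were 399 ± 56.8 (SD, n = 3) and 254 ± 57.7 (SD, n = 3), and the log2 fold change was −0.66 (SE 0.25, 95% interval −1.27 to −0.061) with a limma adjusted p of 0.262. It stayed below 0 under each of the other 18 settings, between −0.87 with centring on sample medians and −0.46 without SOD1-G85R replicate 1. As for Ezh2, several of these settings left the value unchanged, and leaving out a sample could not reverse it. Kmt2c, which marks enhancers, read 551, 729 and 522 in WT, against 512, 502 and 513 in SOD1-G85R. The groups did not overlap, but the gap between 522 and 513 was small beside the WT spread, and the log2 fold change of −0.22 had a standard error of 0.20.

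Dot1l, which methylates the core of histone H3, read 268, 468 and 308 in WT, against 265, 230.1 and 318 in SOD1-G85R, and the groups overlapped around a log2 fold change of −0.33 (SE 0.27). Setd1a, part of a complex that marks active promoters, read 208, 484 and 341 in WT, against 197, 397 and 341 in SOD1-G85R. Replicate 1 was the lowest sample and replicate 2 the highest in both genotypes. Its log2 fold change was −0.12 (SE 0.41). The remaining 7 genes of the class, among them Setd2 and Suv39h1, had log2 fold changes between −0.058 and 0.22, all with overlapping groups.

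The histone demethylases had the highest class median, 0.19 over 9 genes, 5 above 0 and 4 below, but the median was −0.012 after centring on sample medians and −0.042 after quantile normalization. Kdm4d carried the largest fold change of the 49 genes at levels not far above the floor, with 22.2, 26.2 and 23.2 in WT, against 36.2, 23.9 and 66.8 in SOD1-G85R. SOD1-G85R replicate 2 lay inside the WT range and the other SOD1-G85R samples lay above it. Its log2 fold change was 0.68 (SE 0.38, limma adjusted p = 0.445), 1.02 when SOD1-G85R replicate 2 was left out (adjusted p = 0.0936) and 0.30 when replicate 3 was left out instead. In a setting added after the data were seen, which left out replicate 2 and centred the samples on their medians, it was 1.08 with an adjusted p of 0.0208, the one chromatin gene that passed an adjusted p of 0.05 under any setting.

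Kdm2b, a demethylase that also brings Polycomb complexes to CpG islands, read 343, 445 and 406 in WT, against 411, 550.2 and 501 in SOD1-G85R. The groups overlapped, at a log2 fold change of 0.29 (SE 0.21, limma adjusted p = 0.537). Kdm4a, a relative of Kdm4d, had lowest and highest values of 166 and 387 in WT, against 221 and 424 in SOD1-G85R, a spread of 1.22 log2 units within WT. Kdm1a, which acts with corepressors, read 1800.4, 1165 and 1529 in WT, against 1938, 1694 and 1464 in SOD1-G85R. Kdm5a read 751, 557 and 722 in WT, against 747, 453 and 517 in SOD1-G85R. In both genotypes replicate 1 held the highest value of each of these last 2 genes, the opposite order to Kdm4a.

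Of the 5 acetyltransferases, 2 had log2 fold changes above 0 and 3 below, and the class median was −0.10, or −0.31 after centring on sample medians. Crebbp, a coactivator needed for activity-dependent transcription in neurons, read 2784, 2119.9 and 2417 in WT, against 2455, 2202 and 1882 in SOD1-G85R. Its log2 fold change was −0.16 (SE 0.21), and that of its paralog Ep300 was −0.11 (SE 0.21). Hat1, which acetylates new histone H4 before it is built into chromatin, read 944, 667 and 1144 in WT, against 1260.3, 1041 and 1079.5 in SOD1-G85R. WT replicate 2 was the low sample, the groups overlapped, and the log2 fold change was 0.33 (SE 0.25). Kat2a and Kat2b had log2 fold changes of −0.10 and 0.054.

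The deacetylases and corepressors had a median of 0.12 over 7 genes, 5 above 0 and 2 below, which became −0.085 after centring on sample medians and −0.0011 after quantile normalization. Hdac4, a class II deacetylase that shuttles between nucleus and cytoplasm and is abundant in neurons, read 558, 533 and 423 in WT, against 412, 346 and 337 in SOD1-G85R. The groups did not overlap, by a gap of 423 against 412, with means of 505 ± 71.4 and 365 ± 41.2 (SD, n = 3 each). The log2 fold change was −0.46 (SE 0.20, 95% interval −0.96 to 0.033, limma adjusted p = 0.343). Sirt1, an NAD-dependent deacetylase, read 213, 232 and 225 in WT, against 239.7, 247 and 237 in SOD1-G85R. Its groups were tight and did not overlap, but the log2 fold change was 0.11 (SE 0.17). It was −0.096 after centring on sample medians, −0.12 after quantile normalization and 0.19 after centring on housekeeping genes.

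Hdac1 and Hdac2 are the class I pair of the Sin3 and NuRD corepressor complexes. Hdac1 read 198, 288 and 262 in WT, against 235, 408 and 318 in SOD1-G85R, so replicate 1 was lowest and replicate 2 highest in both genotypes. Hdac2 read 2457, 1537 and 2767 in WT, against 3428, 2381 and 2639 in SOD1-G85R, so replicate 2 was lowest in both. Their log2 fold changes were 0.34 and 0.35, with standard errors of 0.28 and 0.29. The scaffold Sin3a and the corepressor Ncor1 had log2 fold changes of 0.16 and −0.19.

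The 4 remodellers had a median of 0.045, 2 above 0 and 2 below, which turned to −0.16 after centring on sample medians and −0.022 after quantile normalization. Smarca5, the ISWI motor, read 2640.4, 1651 and 2888 in WT, against 3031, 2269 and 2571 in SOD1-G85R, with replicate 2 lowest in both genotypes and a log2 fold change of 0.16 (SE 0.28). Smarcd1, a SWI/SNF subunit, read 314, 563 and 440.3 in WT, against 255, 370.2 and 369 in SOD1-G85R. Its groups overlapped through WT replicate 1, and the log2 fold change was −0.39 (SE 0.29, limma adjusted p = 0.560). Smarca4, the SWI/SNF motor, and Arid1a had log2 fold changes of 0.12 and −0.025.

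The 2 readers of acetylated histones, Brd2 and Brd3, both with paired bromodomains, had the class median nearest 0, at 0.010, which turned to −0.20 after centring on sample medians and −0.043 after quantile normalization. Brd2 read 1848, 2099 and 2030.3 in WT, against 1635, 2365 and 2057 in SOD1-G85R, and Brd3 read 473, 647 and 531 in WT, against 437, 605 and 635 in SOD1-G85R. Log2 fold changes were 0.0049 (95% interval −0.50 to 0.51) and 0.015 (95% interval −0.56 to 0.59), with no side to either. Centring on sample medians gave −0.20 and −0.19, and centring on housekeeping genes gave 0.081 and 0.092.

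**Figure D3:**
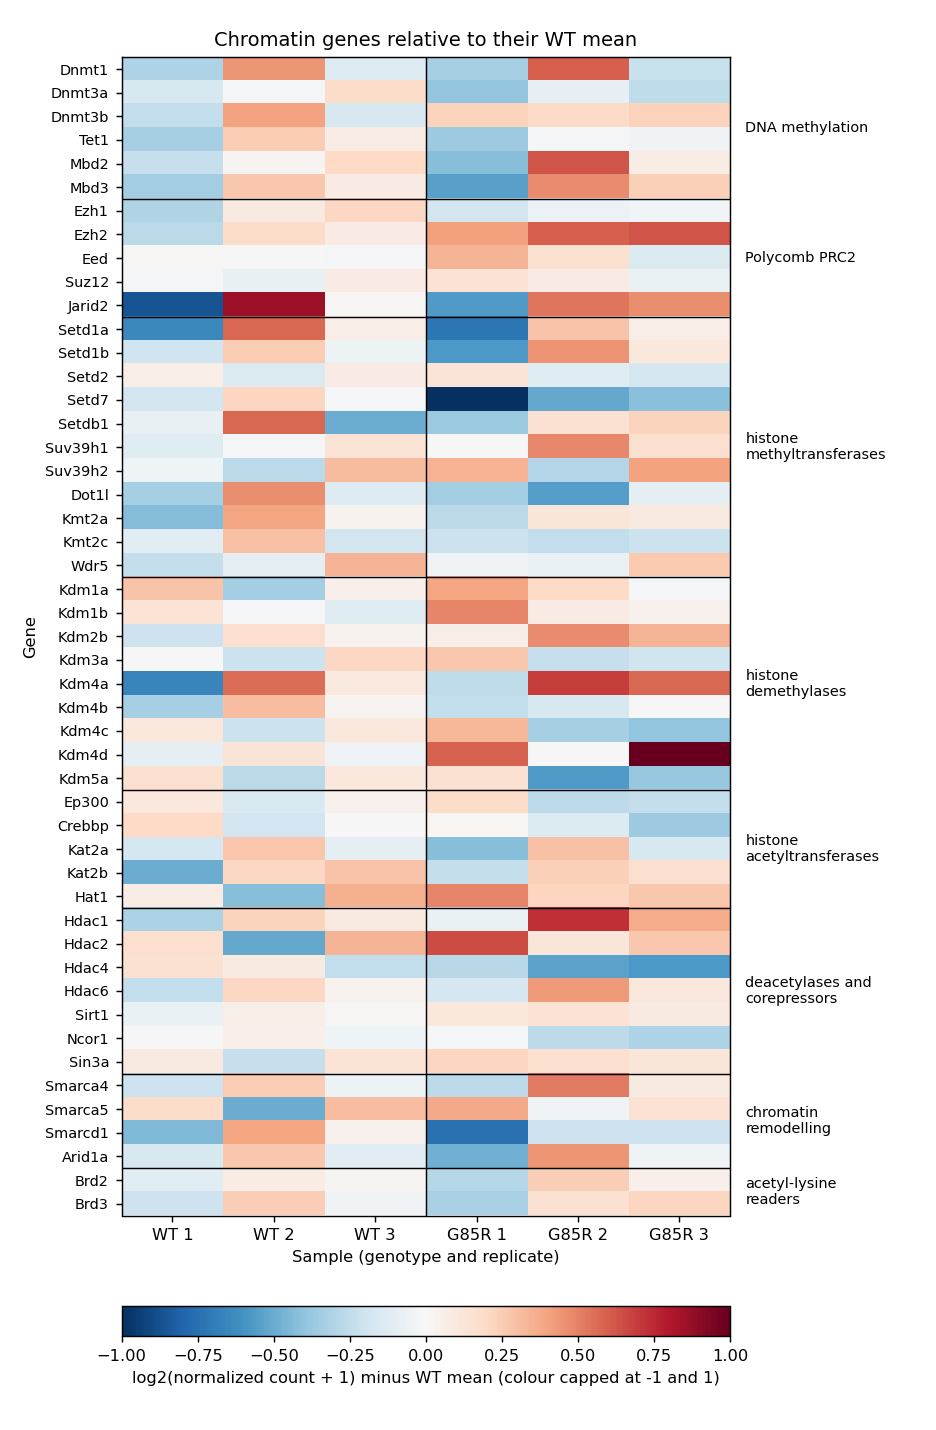
Heat map of the 49 chromatin genes (rows, by enzyme class) in the 6 samples (columns), as log2(normalized count + 1) minus the WT mean of the gene, with colour capped at −1 and 1. The Ezh2 row is red in all 3 SOD1-G85R samples and the Setd7 row blue, while Jarid2, Setd1a and Kdm4a change colour between replicates 1 and 2 of both genotypes.

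The spread between samples of 1 genotype was larger than the difference between genotypes for most of these genes. The range over the 3 WT samples exceeded the size of the fold change in 43 of 49 chromatin genes (87.8%) and in 61.1% of all genes tested. The median range over the chromatin genes was 0.45 log2 units in WT and 0.48 in SOD1-G85R, and over all genes it was 0.51 and 0.72. SOD1-G85R replicate 2 lay outside the range of the other 5 samples in 20 of the 49 (40.8%), against 55.6% of all genes.

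The within-group spread had a pattern that both genotypes showed. Across the 49 chromatin genes, the difference of replicate 2 from replicate 1 in WT and the same difference in SOD1-G85R had Pearson's r 0.75 and Spearman's rho 0.75, and 43 of the 49 (87.8%) had the same sign. Over all 712 genes r was 0.14, rho was 0.32 and 70.8% had the same sign. Against SOD1-G85R replicate 3 minus replicate 1, the WT difference of replicates 2 and 1 had r 0.81 over the chromatin genes and 0.61 over all genes, so the pattern was not special to equal numbers. The differences of WT replicate 3 from replicate 1 gave lower values, with r 0.50 and 0.60 against SOD1-G85R replicates 2 and 3 minus replicate 1, and 36 and 38 of the 49 chromatin genes (73.5% and 77.6%) of equal sign, against 70.2% and 73.2% of all genes. These correlations run across genes that share samples, scaling and replicate 1 and are given as a description. Replicates 2 and 3 were both above replicate 1 in both genotypes for 25 chromatin genes and both below it for 8, together 67.3%. Of the other 663 genes, 287 were above and 38 below, together 49.0%.

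The genes at the ends of this pattern came from several classes. All 3 of Jarid2, Setd1a and Kdm4a were lowest in replicate 1 of both genotypes, as were 5 of the 6 DNA methylation genes and 3 of the 4 remodellers. A low replicate 1 was not particular to chromatin genes. WT replicate 1 was the lowest of all 6 samples for 30.0% of the 50 chromatin genes and 29.2% of all genes tested. For SOD1-G85R replicate 1 these shares were 28.0% and 27.5%. Among the demethylases, 4 of 9, Kdm1a and Kdm5a among them, were instead above the other replicates in replicate 1 of both genotypes, as were Crebbp, Ep300, Hdac4 and Eed. Replicates 1, 2 and 3 held 857899, 689749 and 970297 implied counts in WT, against 551739, 1022646 and 468717 in SOD1-G85R. The part of depth in this pattern was not tested, and the labels name no batch.

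**Figure D4:**
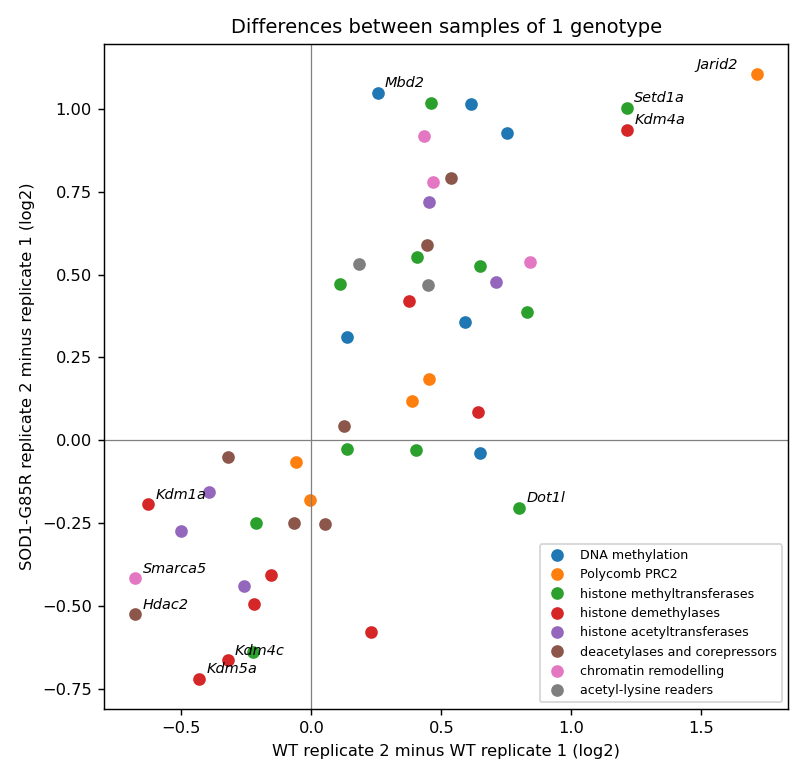
Each point is 1 of the 49 chromatin genes, with the log2 difference of WT replicate 2 from WT replicate 1 on the horizontal axis and that of SOD1-G85R replicate 2 from SOD1-G85R replicate 1 on the vertical axis; colour gives the enzyme class. Most points (43 of 49, against 70.8% of all 712 genes) lie in the quadrants of equal sign, with Jarid2, Setd1a and Kdm4a at the upper right and Hdac2, Smarca5 and Kdm5a at the lower left.

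Further chromatin genes outside the 53 gave a wider range. A list of 112 such genes was set out by name, and 20 were measured and tested, with a median log2 fold change of 0.058 (11 above 0, 9 below) and a range from −2.14 to 1.19. The lowest, −2.14 (SE 2.11, limma adjusted p = 0.640), was that of the Y-linked Uty, which was at or near the floor in 1 WT and 2 SOD1-G85R samples and was chosen for naming after its value was seen. Pcna, the sliding clamp of replication, stands both on this list and among the proliferation markers below. At an unadjusted p under 0.05 there were 3 (15.0%), all higher in SOD1-G85R, against 16.3% of all genes. Lmnb1, the B-type lamin of the nuclear envelope, read 238, 304 and 311 in WT, against 557, 765 and 636 in SOD1-G85R, with no overlap and a log2 fold change of 1.19 (SE 0.22, limma adjusted p = 0.139). The linker histone gene Hist1h1d read 8.87, 17.1 and 22.4 in WT, the first at the floor and only the last above the filter value of 20, and 32.0, 40.6 and 31.3 in SOD1-G85R. Hells, a remodeller needed for DNA methylation in dividing cells, read 143, 74.4 and 148 in WT, against 228, 187 and 200.3 in SOD1-G85R. For these 3 genes each SOD1-G85R sample lay above each WT sample. Groups did not overlap for 6 of the 20 (30.0%), against 27.0% of all genes, the others being Rag1 and Pcna on the higher side and Kdm2a on the lower. Rag1 read 8.87, 19.1 and 16.0 in WT, against 21.3, 21.5 and 46.9 in SOD1-G85R. It passed the filter only through the group where it was higher and so had to differ, and it is still counted among the 6. Pcna had a log2 fold change of 0.39 (SE 0.26), and Kdm2a, a demethylase related to Kdm2b, had one of −0.20 (SE 0.18), with limma adjusted p of 0.518 and 0.616.

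Markers of dividing cells and of oligodendrocytes lay apart between the genotypes. Of 13 proliferation markers measured, 13 had higher mean log2 levels in SOD1-G85R, 9 with no overlap (17.0% of all genes on that side) and 9 at an unadjusted p under 0.05 (11.7% of all genes on that side), around a median log2 fold change of 0.98. Their summed level was 2100 to 2748 in WT and 3693 to 4340 in SOD1-G85R, and none was at the floor. The higher Ezh2, Lmnb1 and Hells values lay in the same samples, as those of any genes higher in that group must. Within WT, replicate 2 had the lowest sum (2100), the highest Ezh2 (461) and the lowest Hells (74.4). Much of that sum was Pcna, at 1328, 806 and 1411 in WT replicates 1, 2 and 3. The median of the 13 markers relative to their WT mean was instead lowest in WT replicate 1. It was −0.17 there, against 0.0016 and 0.13 in WT replicates 2 and 3, and Ezh2 was also lowest in WT replicate 1 (336). Of 15 oligodendrocyte markers, 15 had lower mean log2 levels in SOD1-G85R, around a median of −0.74 and with no overlap for 8 (9.97% of all genes on that side), and their sum was 55351 to 73783 in WT and 29128 to 39819 in SOD1-G85R. Of 13 neuron markers, 10 had lower mean log2 levels, with a sum of 45368 to 47321 in WT and 34983 to 41406 in SOD1-G85R. Over all 712 genes, 446 had higher and 266 lower mean log2 levels in SOD1-G85R. Median log2 fold changes were 0.033 for 6 astrocyte, −0.0020 for 11 microglia and 0.19 for 7 endothelial markers. SOD1-G85R replicate 2 had the highest sums of the last 2 lists, 8946 and 9143. Single genes made up much of these sums, Tyrobp with 3742 of the microglia sum and Ly6a with 5388 of the endothelial sum. Other markers did not rise with them in that sample. The microglia markers P2ry12 (302) and Fcrls (70.1) had their lowest values of all samples there, and the endothelial marker Emcn (201) lay inside the WT range. The part of these cell types in the chromatin gene values was not tested, and in a homogenate fewer cells of a type and less RNA per cell cannot be told apart.

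**Figure D5:**
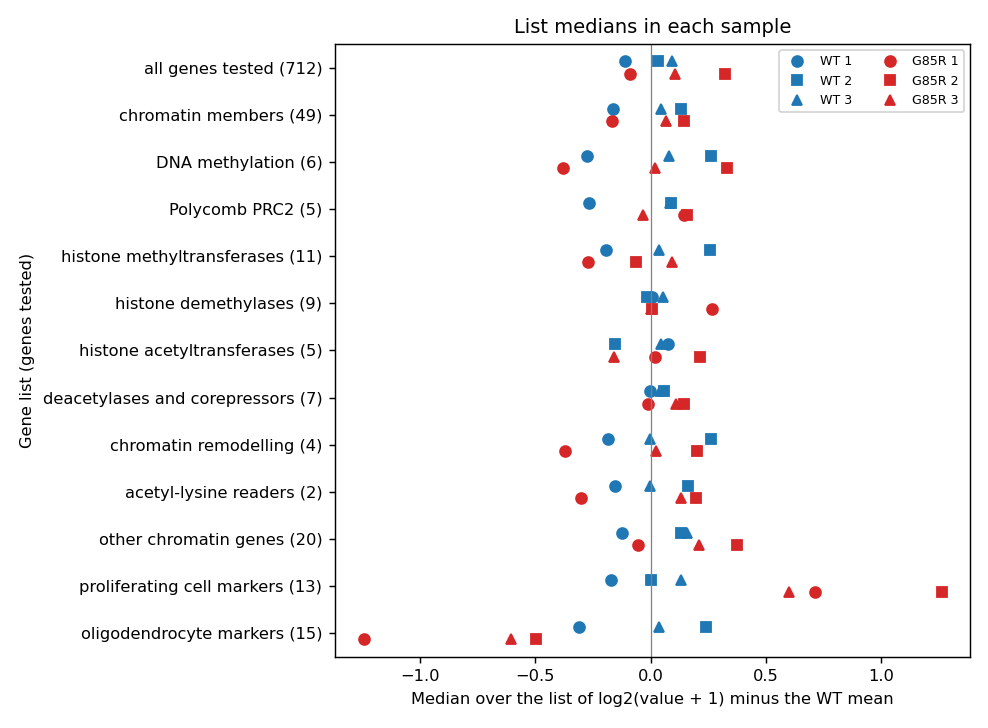
Median over each gene list of log2(normalized count + 1) minus the WT mean of the gene (horizontal axis) in each WT (blue) and SOD1-G85R (red) sample, with the number of genes tested in brackets. For the 49 chromatin genes the samples of both genotypes overlap, while the 13 proliferation markers lie higher and the 15 oligodendrocyte markers lower in all 3 SOD1-G85R samples.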

How the data were processed

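RNA of 3 WT and 3 SOD1-G85R whole-brain homogenates was measured on a NanoString panel. The deposited signal is a normalized count made by the authors; no label names the software, the scaling genes or a background rule. Below 150, deposited values above the sample's lowest were whole multiples of 1 step (within 0.1 count), which gave the implied totals, and the lowest value was read as a floor, so no count test was run. A gene was tested if 3 or more samples exceeded 20 (712 of 770 genes), on log2(value + 1), two-sided, by limma's lmFit and eBayes (version 3.58.1, under R 4.3.3), with Benjamini-Hochberg adjustment at 0.05. A fold change on this scale understates the change of low genes. Within-sample ratios were tested by exact permutation.

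The chromatin genes, their classes and the other gene lists were chosen with earlier results of these data known. The other lists held further chromatin genes, interferon response genes, and markers of neurons, oligodendrocytes, astrocytes, microglia, endothelial cells, proliferating cells and T and NK cells. Among the 49 chromatin genes tested, every sample's value is printed where the groups do not overlap or the unadjusted limma p is under 0.05. The same holds for the 2 genes of smallest p in each class. Up to 3 others per class are named, besides Kdm3b as the gene not tested. Alternatives were other scalings, filters, pseudocounts and variance models, a replicate block and leaving out each sample. Promoter letters came from RefSeq windows on GRCm38.p6.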

Additional observations from a re-analysis of the deposited data

How the results depend on the processing

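With 1 sample left out, 0 to 10 panel genes and 0 chromatin genes passed an adjusted p of 0.05 in limma, the 10 without SOD1-G85R replicate 2. Panel counts were 28 with sample weights, 4 at an adjusted p of 0.10, 116 at an unadjusted p of 0.05 (2 of them chromatin genes) and 80 without SOD1-G85R replicate 2 and with centring on sample medians, a setting chosen after the data were seen that also called 1 chromatin gene, Kdm4d, at 1.08. Centring on sample medians moved the median of the chromatin genes to −0.19, PRC2 to −0.089, methyltransferases to −0.23, demethylases to −0.012, acetyltransferases to −0.31, deacetylases to −0.085, DNA methylation to −0.17, remodellers to −0.16 and readers to −0.20. Demethylases came to −0.042 after quantile normalization, 0.070 with a filter at 50 and 0.062 with sample weights. Deacetylases came to −0.0011 after quantile normalization and 0.20 after centring on housekeeping genes. Left-out samples gave medians from −0.053 to 0.10 for the chromatin genes, −0.19 to 0.20 for DNA methylation, 0.0086 to 0.12 for PRC2, −0.11 to 0.099 for methyltransferases, 0.0075 to 0.22 for demethylases, −0.084 to 0.066 for acetyltransferases, 0.076 to 0.14 for deacetylases, −0.17 to 0.13 for remodellers and −0.084 to 0.17 for readers. Each centring subtracts 1 value per sample, so it moved every log2 fold change and every class median by the same amount. The moves of the classes after centring on sample medians are therefore not separate results. The median log2 level of the tested genes was 8.63 in SOD1-G85R replicate 2, the highest of all samples. It was 7.67 and 7.96 in SOD1-G85R replicates 1 and 3. Why that median was high, and the cause of the other shifts, was not tested.

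Of 322 values of the 18 named chromatin genes under other settings, 303 kept their direction. Other filters, the variance model and the replicate block leave each fold change as it was, so their values could not change direction. The tally therefore overstates how far the directions were put to a test. The opposite sign was seen for Eed (−0.089), Sirt1 (−0.096), Smarca5 (−0.044), Brd2 (−0.20) and Brd3 (−0.19) after centring on sample medians, for Dnmt3b (−0.70), Sirt1 (−0.12) and Brd3 (−0.14) after quantile normalization, for Brd2 with sample weights (−0.012) and without SOD1-G85R replicate 2 with centring (−0.053), and for Dnmt3b with values under 20 set to 20 (−0.013), also chosen after the data were seen. Centring on housekeeping genes kept the direction of each of the 18. Without SOD1-G85R replicate 2 and with centring on sample medians, Eed was 0.16, Sirt1 0.16, Smarca5 0.33 and Brd3 0.013, all above 0, unlike Brd2. Left-out samples gave −0.12 to 0.15 for Brd2, −0.088 to 0.18 for Brd3, −0.084 to 0.32 for Smarca5, 0.41 to 0.64 for Ezh2 and −0.79 to −0.46 for Setd7. The ratio of Hdac1 to Hdac2 ran from −0.31 to 0.36, that of Ezh2 to Ezh1 from 0.58 to 0.69 and that of Dnmt1 to Dnmt3a from 0.045 to 0.49. Dnmt3b and Kdm4d gave no value with a filter at 50.

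The labels do not say that equal replicate numbers pair samples. Over 712 genes the deviations of same-numbered samples correlated at 0.23, 0.088 and 0.10 for numbers 1, 2 and 3. Over the 49 chromatin genes they correlated at 0.81, 0.56 and −0.042. Samples of unlike number gave −0.32 to 0.19 over 712 genes and −0.77 to 0.48 over the 49. Deviations within a genotype sum to 0, so these values are not independent, and whether equal numbers share a batch was not tested. With the replicate number as a block, 0 panel genes and 0 chromatin genes passed an adjusted p of 0.05 in limma, 162 panel genes had an unadjusted p under 0.05 against 116 without it, and the adjusted p was 0.167 for Ezh2 and 0.157 for Setd7. Values at a sample's floor, such as 2 of Kdm3b, give only an upper bound.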

Other observations

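The histone demethylase genes of the sex chromosomes, which are outside the 53 chromatin genes and were chosen after their values were seen, split the samples across genotypes. Kdm5d, a Y-linked demethylase, read 392, 341 and 8.05 in WT (replicates 1, 2 and 3 in this order), against 7.85, 242 and 10.2 in SOD1-G85R, with the low values at the floor. Uty, the Y-linked relative of Kdm6a, read 684, 478 and 11.2 in WT, against 7.85, 466 and 10.2 in SOD1-G85R. Both were therefore high in the same 3 samples, 2 of them WT and 1 SOD1-G85R. Kdm6a, which lies on the X chromosome and escapes its silencing, read 268, 248 and 407 in WT, against 384, 229 and 337 in SOD1-G85R, lower in these 3 samples than in the other 3. Kdm5c, the X-linked relative of Kdm5d, did not follow this split, at 405, 573 and 643 in WT, against 424, 649.7 and 632 in SOD1-G85R. The numbers of samples with and without Y-linked signal differ between the genotypes, and their part in the chromatin gene values was not tested.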
